A study of Mus musculus with 13 samples.

Results

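Potassium channel genes were examined in RNA sequencing of mouse aorta. They were taken by symbol, as genes whose symbol is Kcn followed by letters and a number, and by level, as genes that reached 1 FPKM in at least 2 of 12 libraries. FPKM are fragment counts that the authors divided by transcript length and by the library's mapped fragments, so levels can be set side by side between genes. Of 92 genes with such a symbol, 36 met the level and 56 did not. The 36 were thus selected on the same measured FPKM values that are described here, and their detection is not a finding. The level was set over all libraries together, without regard to treatment. By family they were 13 of 30 voltage-gated pore-forming genes, 1 of 10 voltage-gated modifier genes, 7 of 11 genes of auxiliary subunits, 7 of 12 calcium- or sodium-activated channel genes, 5 of 15 inward rectifiers and 3 of 14 genes of 2-pore-domain channels.

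The mice drank water alone (vehicle, 4 samples), water with fasudil at 150 mg/kg/day (3 samples), water with 0.25% β-aminopropionitrile, here BAPN (3 samples), or both agents (3 samples). Fasudil is a vasodilator that inhibits protein kinases, and BAPN blocks lysyl oxidases, the enzymes by which elastin and collagen fibres are linked. In the combination group BAPN was given alone for 1 week before fasudil joined it (given to induce AD, which the labels do not spell out), and all animals had 1 week of acclimatisation and 4 weeks of experiment. The labels put 11 mice in the vehicle arm, 10 in the fasudil arm and 12 in the BAPN arm. The labels used here give no strain, sex or age, and do not say whether each sample came from a separate mouse. The titles of the BAPN samples share a single number, so p-values measure only the spread between these samples, which may be technical.

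The 12 libraries had an estimated depth of 20.15 M to 20.8 M reads and 11127 to 13601 genes at 1 FPKM or more. The deposited values of BAPN replicate 2 equal those of BAPN replicate 1 plus 1 FPKM in all 28510 genes with values, so that library was left out and BAPN had 2 libraries, replicates 1 and 3. All 11 smooth muscle markers, 10 endothelial markers and 10 fibroblast markers passed the level filter, and the libraries also held markers of other cell types. Brown adipocyte markers summed to between 641 and 11437 scaled FPKM, sympathetic neuron markers to between 11.0 and 1413, and airway epithelium markers reached 13686 in vehicle replicate 3 against 231 or less elsewhere. BAPN replicate 1 stood apart with B and plasma cell markers at a sum of 394 against at most 13.4 in the other libraries. At the estimated depth, 1 FPKM stands for about 26.0 reads of Kcne3, the shortest transcript in the family, and 246 reads of Kcnma1, the longest.

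Potassium channels let potassium leave the cell, which holds the membrane at a negative voltage. In arterial smooth muscle this keeps voltage-gated calcium channels closed and favours relaxation, and closing or losing potassium channels favours contraction. Several kinds act side by side in the vessel wall. Voltage-gated channels (Kv) open on depolarisation, large-conductance calcium-activated channels (BK) open on local calcium release, inward rectifiers of the ATP-sensitive type (KATP) couple the voltage to metabolism, and 2-pore-domain channels give a steady leak. Neurons, glia, immune cells and fat cells use other members of the same families.

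Promoter sequences are shown for 4 genes whose levels across the libraries contrast most in the account that follows. They are Kcnmb1 and Kcnh2, whose levels ran together with smooth muscle markers, Kcnmb4, which was high in libraries with neuronal markers, and Kcnj8, which varied least among the more abundant genes. Each window is 300 bases of RefSeq on GRCm38.p6, written 5′ to 3′ on the gene's strand. The 250 bases before the window's annotated start are in lower case, and the 50 bases from that start on are in capitals. The windows are chr11:33962763-33963062 on the plus strand for Kcnmb1, chr5:24329542-24329841 on the minus strand for Kcnh2, chr10:116473474-116473773 on the minus strand for Kcnmb4 and chr6:142571565-142571864 on the minus strand for Kcnj8.
Kcnmb1: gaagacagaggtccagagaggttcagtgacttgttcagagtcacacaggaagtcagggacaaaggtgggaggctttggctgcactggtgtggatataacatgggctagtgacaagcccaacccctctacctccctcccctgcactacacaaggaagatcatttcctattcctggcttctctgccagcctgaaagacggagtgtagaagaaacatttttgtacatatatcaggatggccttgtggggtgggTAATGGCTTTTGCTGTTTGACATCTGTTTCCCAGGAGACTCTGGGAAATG
Kcnh2: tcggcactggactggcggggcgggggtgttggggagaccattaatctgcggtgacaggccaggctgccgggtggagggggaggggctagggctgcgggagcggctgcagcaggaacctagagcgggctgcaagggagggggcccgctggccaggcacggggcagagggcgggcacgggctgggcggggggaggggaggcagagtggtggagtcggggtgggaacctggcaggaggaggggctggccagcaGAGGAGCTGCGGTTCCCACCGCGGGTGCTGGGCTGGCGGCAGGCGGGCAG
Kcnmb4: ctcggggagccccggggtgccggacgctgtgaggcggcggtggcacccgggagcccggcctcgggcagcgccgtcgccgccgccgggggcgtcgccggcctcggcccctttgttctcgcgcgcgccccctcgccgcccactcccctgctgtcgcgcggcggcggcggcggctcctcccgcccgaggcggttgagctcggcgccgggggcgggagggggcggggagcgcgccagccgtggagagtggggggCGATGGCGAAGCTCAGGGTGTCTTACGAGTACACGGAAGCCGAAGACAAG
Kcnj8: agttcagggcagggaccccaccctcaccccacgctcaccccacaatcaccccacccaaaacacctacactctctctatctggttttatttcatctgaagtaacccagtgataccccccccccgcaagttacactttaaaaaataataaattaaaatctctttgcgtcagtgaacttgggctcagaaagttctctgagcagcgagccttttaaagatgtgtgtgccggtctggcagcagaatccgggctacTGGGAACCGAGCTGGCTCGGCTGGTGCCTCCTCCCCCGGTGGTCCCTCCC
The starts of Kcnmb1 and Kcnj8 are also the 5′ ends of these genes in GENCODE M21. That of Kcnmb4 lies 355 bases downstream of the gene's 5′ end. That of Kcnh2 lies 22013 bases into the gene, at the start of a shorter transcript. The lower-case bases of Kcnmb4 and Kcnh2 thus lie within the gene by GENCODE M21 and are not upstream of its 5′ end. The Kcnmb1 window holds 1 CG dinucleotide, the Kcnj8 window 9, the Kcnh2 window 19 and the Kcnmb4 window 48, against a median of 7 over all 32851 windows of the table. Their GC contents are 49.7%, 53.3%, 74.3% and 79.0%, and the median of all windows is 52.7%. RefSeq windows were found for 25 of the 36 genes, 36 windows in all. A CArG box, the motif bound by serum response factor in many smooth muscle genes, was searched on both strands and occurs in 0 of these 36 windows and in 1.63% of all windows. The motif CATTCC, known from TEAD factors, was searched on both strands and occurs in 1 window each of Kcna5, Kcnk4, Kcnn4 and Kcns3, 4 of 36, against 14.7% of all windows. A match is only a stretch of letters, and its absence says nothing beyond these windows.

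Kcnk3 stood far above the other potassium channel genes in the vehicle aorta. The levels below are FPKM scaled between libraries (scaled FPKM), and values follow the replicate order within each group (vehicle 1 to 4, fasudil 1 to 3, BAPN 1 and 3, combination 1 to 3). Values in every library are given for genes among the 10 with the highest vehicle means and for those with the smallest p in a comparison, and besides for Kcnma1, Kcnmb4, Kcnq3 and Kcnt1, chosen after their values were seen. The 36 genes together summed to between 150.4 and 234 scaled FPKM per library, and Kcnk3 alone made up between 7.64% of that sum in BAPN replicate 1 and 68.4% in vehicle replicate 4. Only 12 genes reached 1 FPKM in all 12 libraries, while 10 reached it in fewer than 4. The next vehicle means included those of Kcnh2, Kcnmb1, Kcnj8 and Kcnab1, which lay between 9.58 and 13.9. The map of genes by library shows Kcnk3 as the brightest row and the rows of Kcnh2, Kcnab1 and Kcnmb1 changing together.

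**Figure D1:**
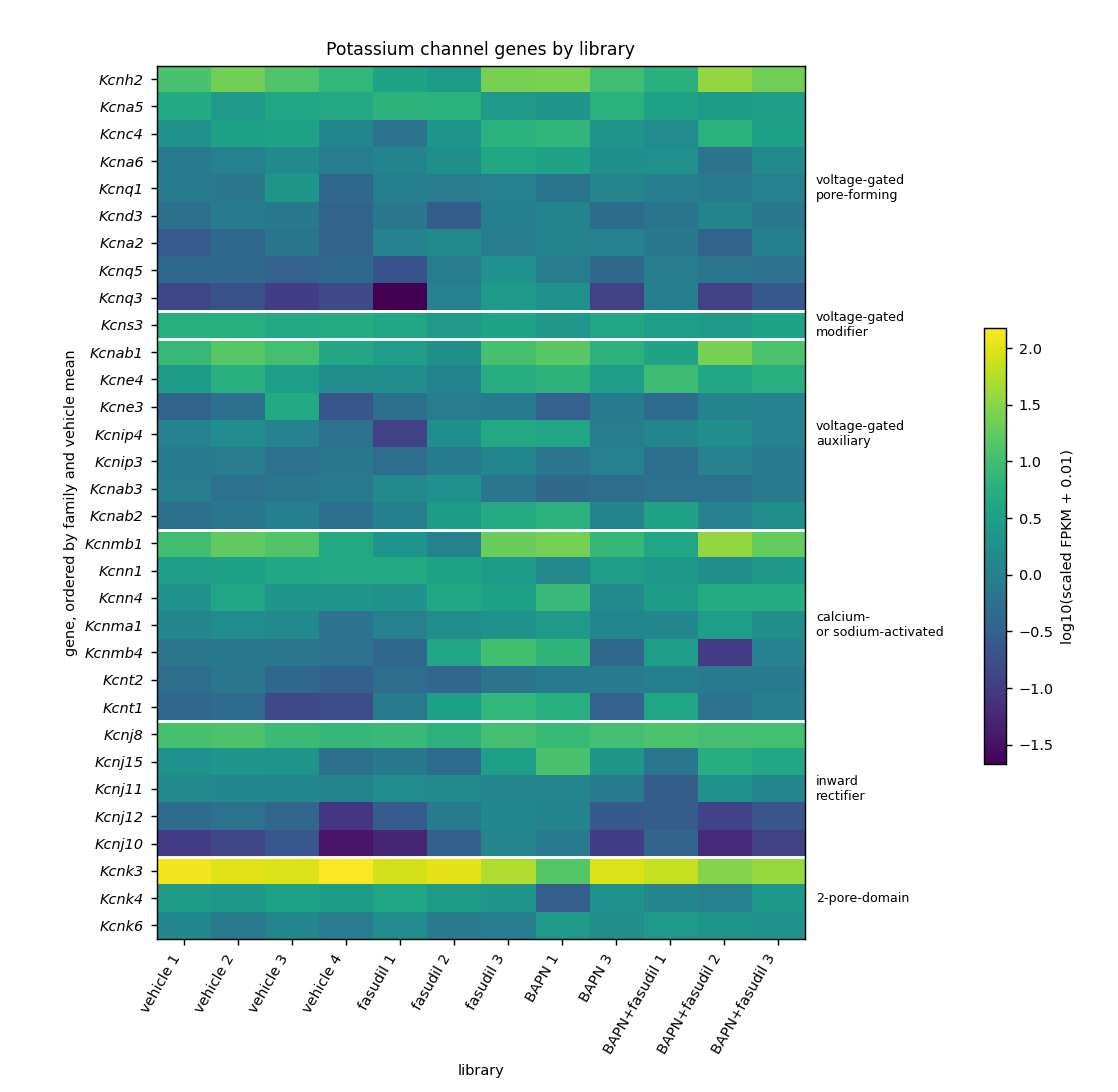
Level of 32 of the 36 genes (rows, by family and falling vehicle mean) in each of the 12 libraries (columns), as log10 of scaled FPKM plus 0.01. Kcnk3 is the brightest cell of its column in every library except BAPN replicate 1 and BAPN+fasudil replicate 2, and Kcnq3 is dark except in fasudil replicates 2 and 3, BAPN replicate 1 and BAPN+fasudil replicate 1.

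The 2-pore-domain channels give background leak. Kcnk3 encodes TASK-1, an acid-sensitive leak channel known from human pulmonary artery smooth muscle and from mouse brown adipocytes, and was at 130.3, 103, 95.4 and 151 with vehicle, 85.1, 105 and 52.6 with fasudil, 13.99 and 94.3 with BAPN, and 68.4, 29.5 and 38.1 with the combination. Per the deposited table the gene lies on the plus strand of chromosome 5, from 30745514 to 30782615. The submitters' processing notes name GRCm39 and mm10, and 0 of the 36 gene starts in the table equal those of GENCODE M21 on GRCm38, so GRCm39 was taken as the build. The highest values were those of vehicle replicates 4 and 1 and the lowest that of BAPN replicate 1. The 3 combination libraries all lay below the 4 vehicle libraries, as they did for 16.6% of all genes tested. Kcnk4, the gene of the mechanosensitive channel TRAAK, was at 2.87, 2.42, 3.43 and 2.88 with vehicle, 4.08, 2.70 and 2.14 with fasudil, 0.303 and 2.01 with BAPN, and 1.21, 1.02 and 2.41 with the combination. It was lowest in BAPN replicate 1, and its exons overlap those of Catsperz on the same strand, so reads of the pair may be shared. Kcnk6, which encodes TWIK-2, was at 1.31, 0.802, 1.19 and 0.892 with vehicle, 1.52, 0.828 and 0.947 with fasudil, 2.60 and 1.77 with BAPN, and 2.47, 2.08 and 1.92 with the combination. This gene lies on the minus strand of chromosome 7, from 28921351 to 28931940. All 5 libraries with BAPN lay above all 7 without it, an order found in 2.17% of all genes tested. In either direction such a gap was found for 2 of the 36 genes and 5.58% of all genes.

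Among voltage-gated pore-forming genes, Kcnh2 was the most abundant. It encodes the channel ERG1 and was at 12.0, 22.9, 13.04 and 7.64 with vehicle, 3.61, 2.90 and 24.7 with fasudil, 25.8 and 10.0 with BAPN, and 5.99, 35.7 and 22.2 with the combination. The range over libraries was wide within every group, and the groups overlapped. The level of Kcna5, which encodes Kv1.5, was 4.89, 2.54, 3.95 and 4.87 with vehicle, 6.56, 6.08 and 2.45 with fasudil, 2.20 and 6.09 with BAPN, and 3.38, 2.64 and 2.99 with the combination. Kcnh2 and Kcna5 ran in opposite ways over the fasudil libraries, with replicate 3 highest for Kcnh2 and lowest for Kcna5.

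Less abundant voltage-gated genes included several known best from neurons. Kcna2, the gene of Kv1.2, was at 0.276, 0.396, 0.660 and 0.375 with vehicle, 1.09, 1.41 and 0.892 with fasudil, 1.12 and 1.02 with BAPN, and 0.739, 0.361 and 0.956 with the combination. All 3 fasudil and both BAPN libraries lay above the 4 vehicle libraries, while the combination overlapped both vehicle and fasudil. Of all genes tested, 4.87% had the fasudil libraries and 13.2% the BAPN libraries above all vehicle libraries. Kcna2 met the level rule only through treated libraries, so its order is not independent of the selection. Kcna6 (Kv1.6) was at 0.815, 1.05, 1.49 and 0.905 with vehicle, 1.16, 1.76 and 4.37 with fasudil, 3.46 and 1.78 with BAPN, and 1.80, 0.631 and 1.46 with the combination. Kcnc4 (Kv3.4) ranged from 0.620 in fasudil replicate 1 to 7.37 in BAPN replicate 1. Kcnd3 (Kv4.3) ranged from 0.279 to 1.16, and Kcnq5 (Kv7.5) from 0.192 to 1.88. Kcnq1 (Kv7.1) was highest at 2.28 in vehicle replicate 3 and between 0.414 and 1.21 elsewhere. Its locus also holds the antisense RNA Kcnq1ot1, and since no source used here says how the counting treated strand, reads of the pair cannot be told apart. It is 1 of 16 genes that share exon positions with a gene on the opposite strand in GENCODE M21. Others are Kcnk3, Kcnab1, Kcnn1, Kcnab3, Kcnmb4, Kcnma1, Kcnt2, Kcna6, Kcnd3, Kcne3, Kcnip4, Kcnj15 and Kcnq5, and their values are uncertain to that extent. Kcnab2 shares exon positions with Gm16334 on the same strand.

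Kcnq3, a subunit of the neuronal M-current, was low in most libraries. It was at 0.131, 0.182, 0.0958 and 0.155 with vehicle, 0.0113, 0.988 and 2.52 with fasudil, 1.79 and 0.111 with BAPN, and 0.950, 0.108 and 0.239 with the combination. Fasudil replicates 2 and 3, BAPN replicate 1 and combination replicate 1 stood above the other 8 libraries for this gene.

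Modifier and auxiliary subunits shape the current of the pore-forming channels. Kcns3, the 1 modifier gene among the 36, encodes Kv9.3, which does not form channels alone and joins other Kv subunits. The gene lies on the minus strand of chromosome 12, from 11140203 to 11201057, and was at 5.68, 5.47, 4.52 and 5.22 with vehicle, 3.89, 2.47 and 3.67 with fasudil, 2.39 and 4.24 with BAPN, and 3.06, 2.44 and 3.65 with the combination. All 4 vehicle libraries lay above the 8 treated libraries, in a range of 4.52 to 5.68 against 2.39 to 4.24. Of all genes tested, 2.34% had that order. In either direction such a gap was found for 1 of the 36 genes and 3.79% of all genes. Kcnab1, the gene of a cytoplasmic Kvβ subunit, was at 8.03, 15.1, 10.8 and 4.38 with vehicle, 2.92, 1.73 and 11.4 with fasudil, 15.9 and 6.34 with BAPN, and 3.48, 24.6 and 12.3 with the combination. Its order over libraries was nearly that of Kcnh2. Kcne4 encodes a membrane subunit known to act on voltage-gated channels and was at 2.69, 5.63, 3.05 and 1.69 with vehicle, 1.65, 1.17 and 5.41 with fasudil, 6.54 and 3.03 with BAPN, and 9.77, 4.21 and 5.46 with the combination. Combination replicate 1 was highest for Kcne4, although it was among the lowest for Kcnh2 and Kcnab1. Kcnab3 was at 0.868, 0.588, 0.671 and 0.801 with vehicle, 1.42, 1.84 and 0.692 with fasudil, 0.443 and 0.491 with BAPN, and 0.576, 0.577 and 0.785 with the combination, with fasudil replicates 1 and 2 the only libraries at 1 FPKM as deposited. Kcnab2, another Kvβ gene, ranged from 0.530 to 6.28. Of the KChIP genes, whose products bind Kv4 channels, Kcnip4 ranged from 0.113 to 4.51 and Kcnip3 from 0.496 to 1.25. Kcne3 was at 4.80 in vehicle replicate 3 and between 0.207 and 1.11 in the other 11 libraries. Its product joins the Kcnq1 channel in epithelia, and Kcnq1 was highest in the same library, in which the airway epithelium markers summed to 13686. The part of those markers in the levels was not tested.

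The BK channel is built from the pore subunit of Kcnma1 and a β subunit, which in smooth muscle is that of Kcnmb1 and in neurons often that of Kcnmb4. Kcnma1 was at 1.30, 1.56, 1.40 and 0.608 with vehicle, 0.992, 1.63 and 1.95 with fasudil, 2.45 and 1.24 with BAPN, and 1.29, 3.09 and 1.73 with the combination. The β1 gene Kcnmb1 was at 10.4, 17.1, 13.6 and 4.65 with vehicle, 2.10, 1.05 and 19.7 with fasudil, 23.4 and 7.77 with BAPN, and 3.88, 35.6 and 18.7 with the combination. It spanned the range from 1.05 in fasudil replicate 2 to 35.6 in combination replicate 2, a highest value 34.0 times the lowest, where the pore gene had 5.09 times. The ratio of Kcnmb1 to Kcnma1 was 7.66 to 11.0 in vehicle, 0.644 to 10.1 with fasudil, 9.55 and 6.25 with BAPN, and 2.99 to 11.5 with the combination. Kcnmb4 was at 0.710, 0.760, 0.681 and 0.582 with vehicle, 0.383, 4.03 and 10.4 with fasudil, 7.10 and 0.408 with BAPN, and 3.06, 0.0901 and 1.08 with the combination. The ratio of Kcnmb1 to Kcnmb4 was lowest at 0.26 in fasudil replicate 2, the only library in which Kcnmb4 exceeded Kcnmb1, and highest at 394.8 in combination replicate 2. In the plot of the 3 subunit genes, Kcnma1 stays at or under 3.09 scaled FPKM in all libraries while the bars of both β genes change height.

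**Figure D2:**
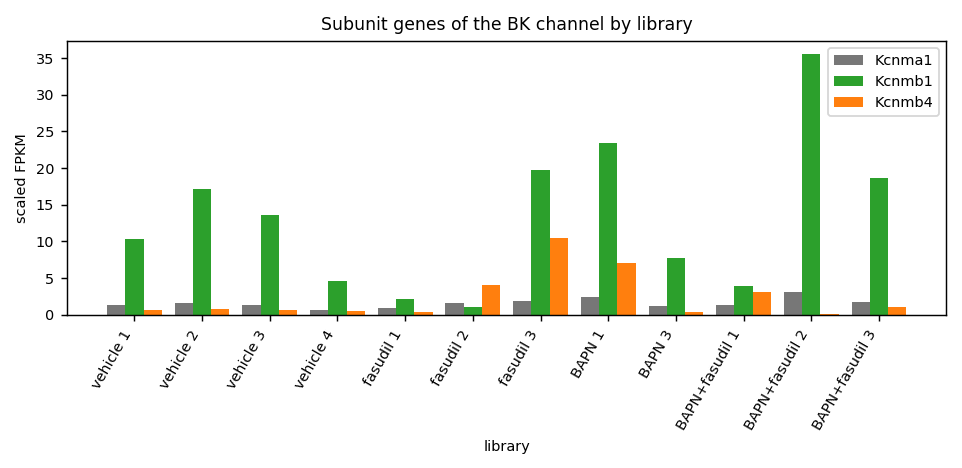
Scaled FPKM (vertical axis, linear from 0) of the BK subunit genes Kcnma1, Kcnmb1 and Kcnmb4 in each of the 12 libraries. Kcnmb1 is the tallest bar in every library except fasudil replicate 2, where Kcnmb4 is at 4.03 and Kcnmb1 at 1.05.

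Of the other calcium- or sodium-activated channels, Kcnn1 encodes the small-conductance channel SK1 and was at 3.10, 3.25, 4.23 and 4.52 with vehicle, 4.60, 3.47 and 2.74 with fasudil, 1.36 and 3.06 with BAPN, and 2.36, 1.75 and 2.40 with the combination. The 5 libraries with BAPN were all below the 4 vehicle libraries, though BAPN replicate 3 at 3.06 was close to the lowest vehicle value of 3.10. Taken separately, 17.6% of all genes tested had the BAPN libraries and 16.6% the combination libraries below vehicle. Kcnn4, the intermediate-conductance channel of immune cells and endothelium, ranged from 1.43 in BAPN replicate 3 to 8.56 in BAPN replicate 1, the library with the highest B, plasma, T and NK cell marker sums. Kcnt1, a sodium-activated channel of neurons (Slack), was at 0.421, 0.471, 0.138 and 0.168 with vehicle, 0.823, 3.22 and 7.60 with fasudil, 5.61 and 0.334 with BAPN, and 3.98, 0.604 and 0.947 with the combination. It was high in the same libraries as Kcnmb4 and Kcnq3. Kcnt2 (Slick) was at 0.4995, 0.674, 0.415 and 0.310 with vehicle, 0.496, 0.389 and 0.664 with fasudil, 0.804 and 0.816 with BAPN, and 0.959, 0.856 and 0.836 with the combination, and it met the level rule through BAPN replicate 1 and combination replicate 1. Both BAPN and all 3 combination libraries lay above all vehicle and fasudil libraries for Kcnt2, within a narrow range of low values. This order was found in 2.17% of all genes tested, and in either direction in 5.58%. BAPN replicate 2, left out here, was at 0.662 for Kcnt2 when recovered from the authors' group mean and scaled in a separate fit. That is about the level of the highest vehicle and fasudil libraries, at 0.674 and 0.664, so the order was not clear with that library. Kcnt2 was selected through libraries with BAPN only, so its order is not independent of the selection.

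Kcnj8 was the most abundant inward rectifier. It encodes Kir6.1, the pore of the vascular KATP channel, and was at 11.4, 12.8, 8.95 and 7.83 with vehicle, 8.77, 6.24 and 10.7 with fasudil, 8.77 and 10.8 with BAPN, and 12.1, 10.9 and 10.8 with the combination. With a highest value of only 2.06 times the lowest and a coefficient of variation of 0.19 over the 12 libraries, its level was the steadiest of the 36 genes. Kcnj11, the gene of the other KATP pore, Kir6.2, ranged from 0.278 to 2.03, both in the combination group, and was between 0.797 and 1.57 in the others. Kcnj15 (Kir4.2) ranged from 0.459 to 11.8, Kcnj12 (Kir2.2) from 0.0776 to 1.31 and Kcnj10, the Kir4.1 gene known from glia, from 0.0259 to 1.18. The 5 genes thus differed in which library was highest, with BAPN replicate 1 for Kcnj15 and fasudil replicate 3 for Kcnj12 and Kcnj10.

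Kcnh2, Kcnmb1 and Kcnab1 were highest in the libraries with the highest smooth muscle marker sums. The smooth muscle markers summed to 1561 to 4897 scaled FPKM with vehicle, 449 to 4520 with fasudil, 4865 and 2073 with BAPN, and 1482 to 9474 with the combination, with all 11 of 11 markers measured and none at 0 throughout. Vehicle replicate 2, fasudil replicate 3, BAPN replicate 1 and combination replicates 2 and 3 held the 5 highest sums. They also held the 5 highest levels of each of these genes, and 4 of the 36 genes had that pattern, which was shared by 5.36% of the 13748 genes tested. Kcna5 was instead at its highest in fasudil replicates 1 and 2, which had the lowest smooth muscle sums, and in BAPN replicate 3. RNA from whole tissue cannot tell fewer cells of a type from less RNA per cell, here and in all results below. The part of these marker sums in the levels was not tested.

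Sympathetic neuron markers were highest in another set of libraries. All 12 of 12 sympathetic neuron markers were measured and none was at 0 throughout, and they summed to 14.4 to 67.3 scaled FPKM with vehicle, 11.0 to 1413 with fasudil, 1094 and 19.5 with BAPN, and 68.6 to 832 with the combination. The 4 highest sums were 1413 in fasudil replicate 3, 1094 in BAPN replicate 1, 832 in combination replicate 1 and 597 in fasudil replicate 2. In the same 4 libraries lay the 4 highest levels of Kcnmb4, Kcnab2, Kcnq5, Kcnt1, Kcnq3 and Kcnj10, and 7 of the 36 genes had that pattern, against 3.4% of all genes tested. The numbers of libraries, 5 and 4, were chosen after the marker sums were seen, and the share of all genes describes how common each order is. Fasudil replicate 3 was the library with the highest level for 11 of the 36 genes, while 8.02% of all genes tested were highest there. The part of the sympathetic neuron markers in these levels was not tested.

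Kcnk3, Kcnk4 and Kcnn1 had their lowest values in BAPN replicate 1, where the brown adipocyte markers summed to 641 scaled FPKM. These 10 markers, none at 0 throughout, summed to 6723 to 11437 with vehicle, 4069 to 8142 with fasudil, 641 and 3394 with BAPN, and 1944 to 2518 with the combination. The sums of the BAPN and combination libraries were thus all below those of the vehicle libraries, as were the levels of these 3 genes in both groups. Taken separately, 17.6% of all genes tested had the BAPN libraries and 16.6% the combination libraries below vehicle. Kcns3 had both orders too, and Kcns3, Kcna5 and Kcnab3 were also lowest in BAPN replicate 1. White and general adipocyte sums were at least 12886 with vehicle and at most 11571 with BAPN and 11601 with the combination. Kcnk4 and Kcnn1 were also highest in fasudil replicate 1, in which the brown adipocyte sum was 7342. The part of the brown or the white and general adipocyte markers in these levels was not tested. The plot of channel genes beside marker sums sets the 3 marker lists over the genes named here, on a log axis.

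**Figure D3:**
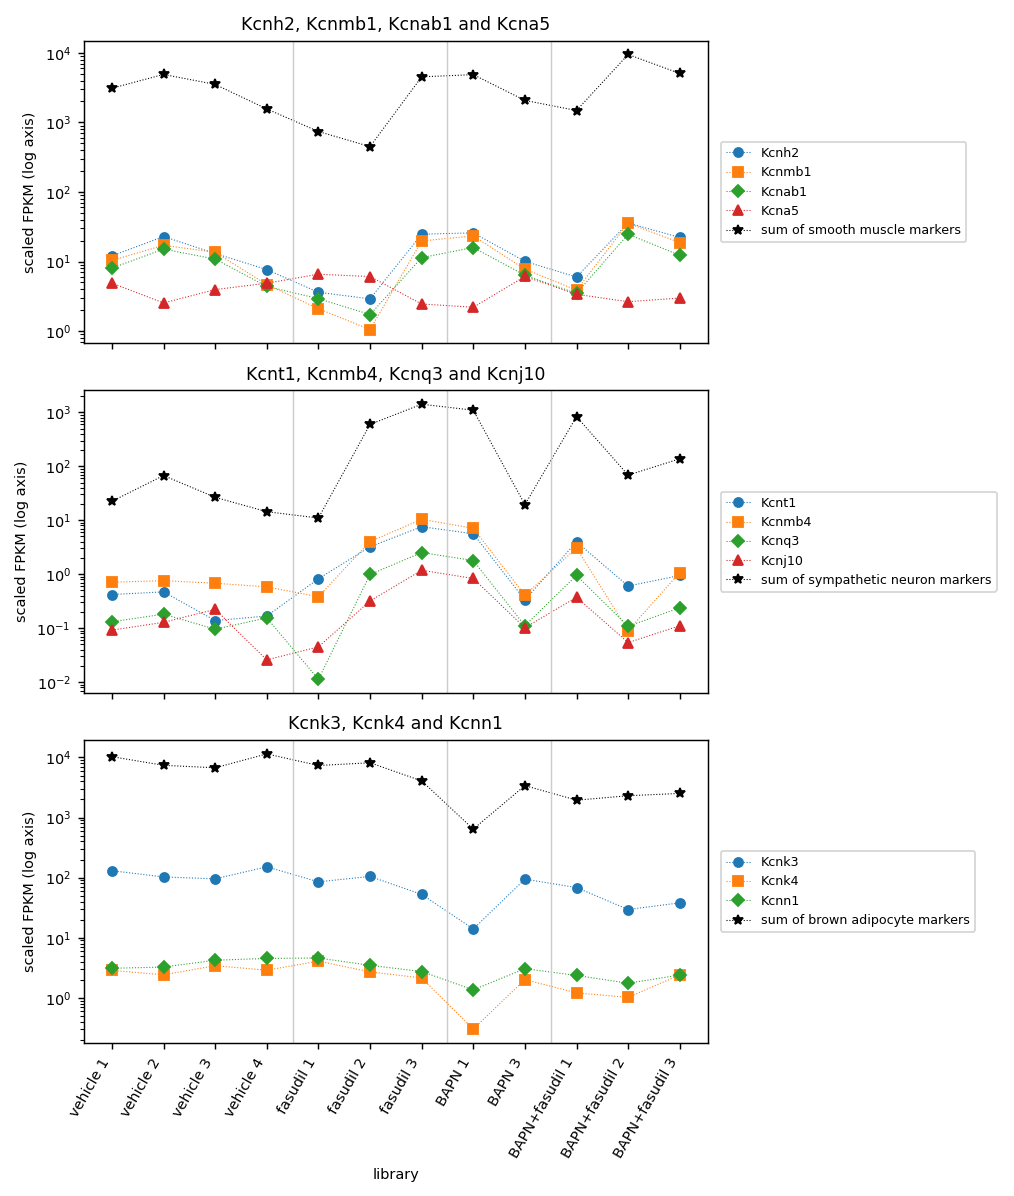
Scaled FPKM (vertical axes, log scale) of 11 channel genes and of the summed markers of 3 cell types (black stars) in each of the 12 libraries. Dotted lines only join points of one gene, since libraries have no order, and grey lines part the treatment groups. Kcnh2, Kcnmb1 and Kcnab1 peak with the smooth muscle sum of 9474 in BAPN+fasudil replicate 2, and the genes of the middle panel peak with the sympathetic neuron sum of 1413 in fasudil replicate 3.

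The genes most like 4 of the channel genes were found over all genes tested by Pearson's r of log2 levels over the 12 libraries, a description with no test, since all genes share the same libraries and tissue content. Kcnh2 was most like Lmod1 (r = 0.996), Smtn (0.992) and Kcnmb1 (0.991), and the first 2 encode proteins of the smooth muscle contractile apparatus. Kcnmb1 was most like Smtn (r = 0.994), Itga9 (0.994) and Pls3 (0.993). Kcnk3 was most like Sephs2 (r = 0.989), Gm5617 (0.988) and Pdk2 (0.986), of which Pdk2 encodes a pyruvate dehydrogenase kinase. Kcnj8 had no gene so close, with Gstt1 (r = 0.912), Vit (0.907) and Anks1 (0.858) at the top of its list.

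Setting BAPN with fasudil against vehicle puts the group that the series' design calls experimental beside untreated mice. No potassium channel gene passed the test. Limma's moderated test at an adjusted p under 0.05 over all 13748 genes called 0 of 36, where it called 1.68% of all genes. At an unadjusted p under 0.05 there were 6 of 36, 2 higher and 4 lower, where the share of all genes was 26.4%. Among the 6 were Kcnk6, Kcns3, Kcnn1, Kcnk3 and Kcnt2, and in each the combination and vehicle libraries did not overlap. Such a gap was common. It was found for 10 of the 36 genes, 5 higher and 5 lower, and for 29.8% of all genes tested. The median log2 fold change of the 36 genes was 0.21, with 24 above 0, beside a median of 0.06 and 56.1% above 0 over all genes. Some of the 36 met the level rule only through treated libraries, so this median and count are not independent of the selection.

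Kcnk6 came closest to the threshold. Its mean was 1.05 ± 0.243 (SD over n = 4) with vehicle and 2.16 ± 0.285 (SD over n = 3) with the combination, a log2 fold change of 0.63 ± 0.17 (SE, 95% interval 0.26 to 1.00) with a limma adjusted p of 0.0612. Kcns3 went from 5.22 ± 0.502 (SD over n = 4) to 3.05 ± 0.605 (SD over n = 3), with a log2 fold change of -0.63 ± 0.18 (SE, 95% interval -1.03 to -0.22) and an adjusted p of 0.0747. Kcnk3 had the largest difference of these genes. It was at 119.9 ± 25.8 (SD over n = 4) with vehicle and 45.3 ± 20.5 (SD over n = 3) with the combination, which gave a log2 fold change of -1.45 ± 0.54 (SE, 95% interval -2.66 to -0.24) and an adjusted p of 0.128. For Kcnn1 the log2 fold change was -0.59 ± 0.21 (adjusted p = 0.119) and for Kcnt2 0.36 ± 0.14 (adjusted p = 0.141). Kcnt2 was selected in part through a combination library, so its difference is not independent of the selection.

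The result of 0 depended on which libraries were fitted and how they were weighted. Kcnk3, Kcnk6 and Kcns3 passed when only the vehicle and combination libraries were fitted (adjusted p = 0.0276, 0.0409 and 0.0279). They also passed without BAPN replicate 1 (adjusted p = 0.0225, 0.0349 and 0.0336) or BAPN replicate 3 (0.0229, 0.0354 and 0.0344). Leaving a library out also moved the level filter and the scaling, and 13343 genes with 31 of the 36 were tested in the first case and 13705 with 36 in the second. In those 3 fits 1796, 1695 and 1639 of all genes passed. With libraries weighted by quality, 10 of 36 passed, beside 5201 of all genes.

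**Figure D4:**
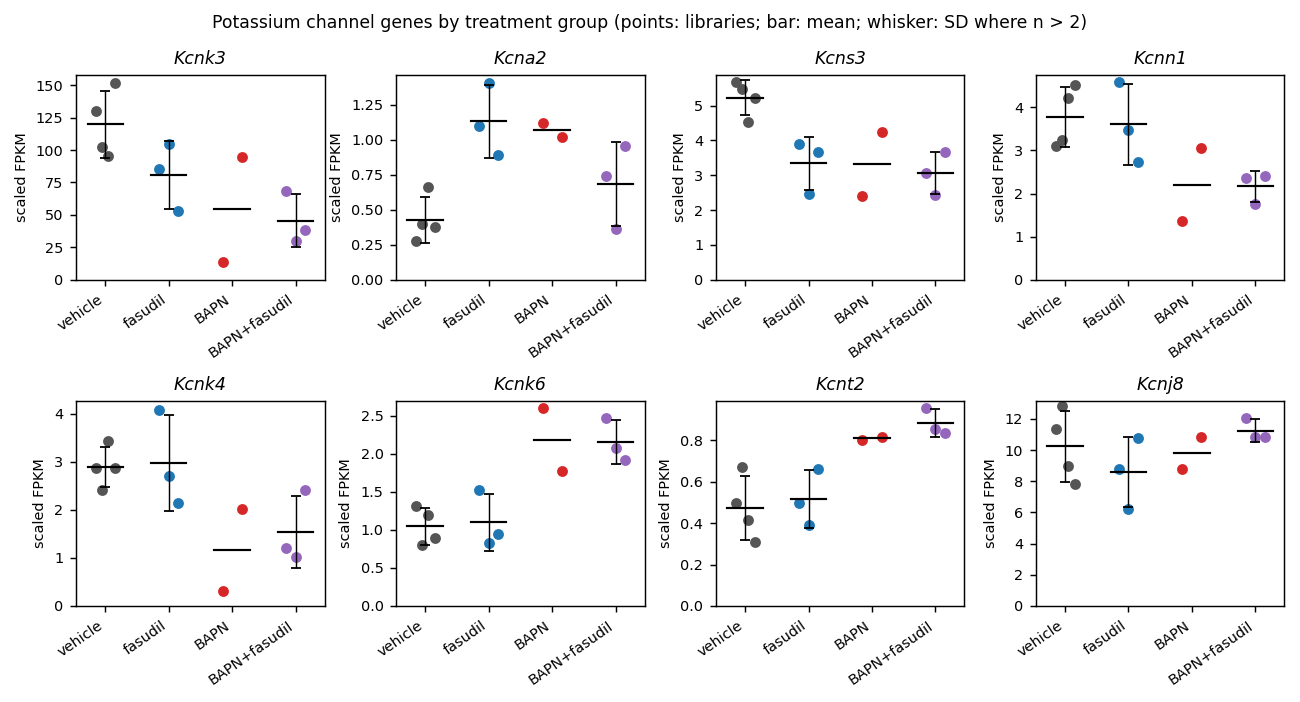
Scaled FPKM (vertical axes, linear from 0) of 8 channel genes in the 4 treatment groups, with a point for each library, a bar at the mean and a whisker of 1 SD where a group has more than 2 libraries. The combination libraries lie below all vehicle libraries for Kcnk3, Kcns3, Kcnn1 and Kcnk4 and above them for Kcnk6 and Kcnt2, while for Kcna2 and Kcnj8 these groups overlap.

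The genes whose levels ran with smooth muscle markers had wide intervals in the same comparison. Kcnmb1 had a log2 fold change of 0.41 ± 0.88 (SE, 95% interval -1.54 to 2.36), Kcnh2 0.38 ± 0.74 (SE, 95% interval -1.26 to 2.02) and Kcnab1 0.23 ± 0.67 (SE, 95% interval -1.27 to 1.73), with limma adjusted p values of 0.786, 0.767 and 0.849. The intervals of Kcnmb1 and Kcnh2 reach above 1 and below -1 on the log2 scale. For Kcna5 the value was -0.31 ± 0.33 (SE, 95% interval -1.06 to 0.43, adjusted p = 0.575). Kcnj8 had the narrower interval of 0.14 ± 0.19 (SE, 95% interval -0.28 to 0.57), with an adjusted p of 0.661. By family the medians were 0.23 for pore-forming voltage-gated genes, 0.16 for auxiliary genes, 0.41 for calcium- or sodium-activated channels, 0.07 for inward rectifiers and -0.65 for the 3 genes of 2-pore-domain channels, of which Kcnk3 and Kcnk4 were below 0 and Kcnk6 above.

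**Figure D5:**
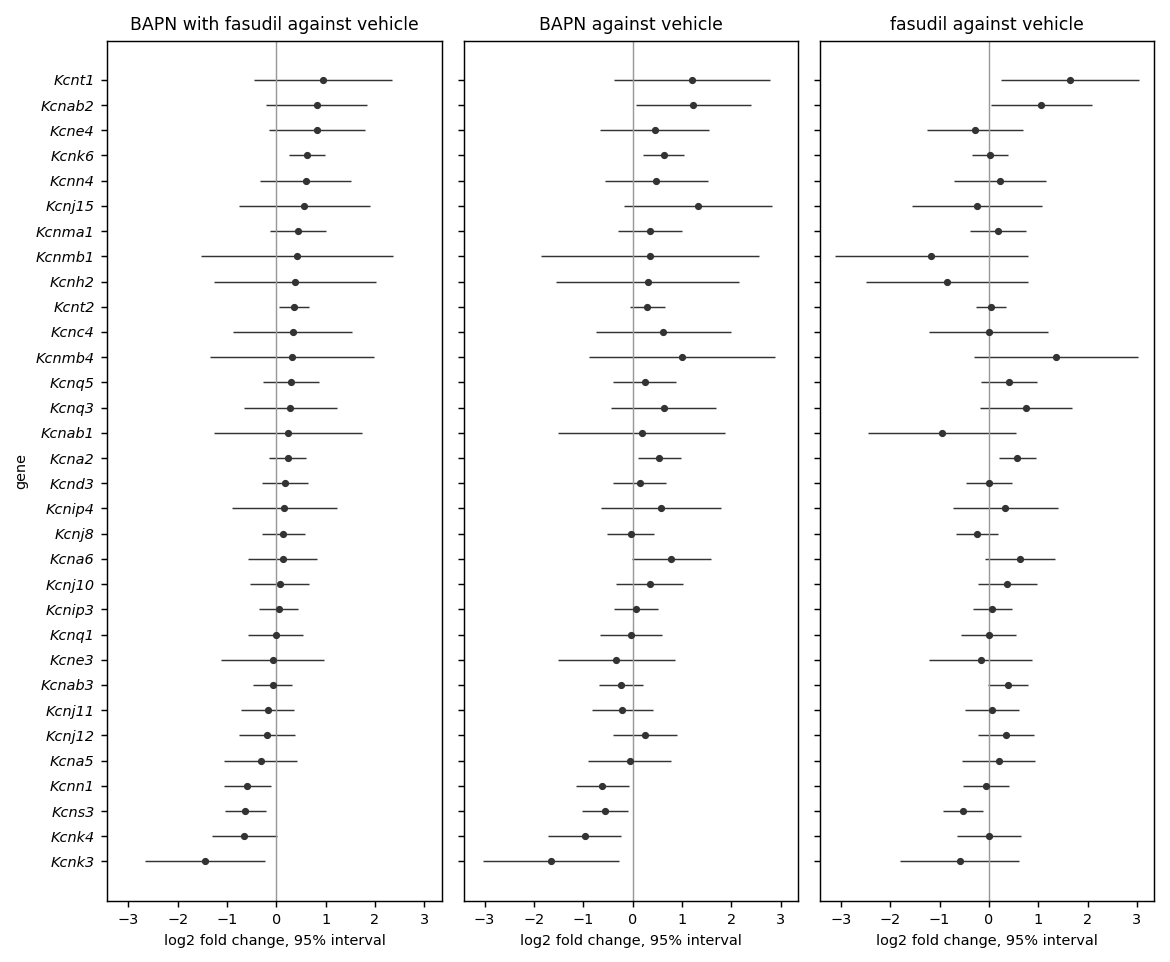
Log2 fold change (horizontal axis, points) with 95% intervals (lines) of 32 of the 36 genes for the 3 treatments against the same vehicle libraries, ordered by the value for BAPN with fasudil. Kcnk3 is lowest in that panel at -1.45 and Kcnt1 highest at 0.95, and no gene passed limma's adjusted threshold in any panel.

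BAPN against vehicle asks what BAPN alone does, with only 2 BAPN libraries. Limma called 0 of 36 genes, and 0.0% of all genes. At an unadjusted p under 0.05 there were 8 of 36, 3 higher and 5 lower, against 20.6% of all genes. Kcnk6 again had the smallest p, at a log2 fold change of 0.63 ± 0.19 (SE, 95% interval 0.21 to 1.05) and an adjusted p of 0.113. Kcnk4 was at 2.90 ± 0.413 (SD over n = 4) with vehicle and at 0.303 and 2.01 with BAPN, a log2 fold change of -0.97 ± 0.33 (SE, 95% interval -1.71 to -0.23) with an adjusted p of 0.147. Kcnk3 had a log2 fold change of -1.65 ± 0.62 (SE, 95% interval -3.03 to -0.28, adjusted p = 0.174), with BAPN replicate 1 at 13.99 and replicate 3 at 94.3. Kcns3 (-0.56 ± 0.21, adjusted p = 0.173), Kcnn1 (-0.61 ± 0.24, 0.190), Kcna2 (0.54 ± 0.19, 0.156) and Kcnab2 (1.23 ± 0.52, 0.216) were also among them. Kcna2 and Kcnab2 met the level rule only through treated libraries, so their differences are not independent of the selection. Without BAPN replicate 3, when BAPN replicate 1 stood for the group and was assumed to vary like the other libraries, 7 of 36 passed, namely Kcnab2, Kcnk3, Kcnk4, Kcnk6, Kcnn1, Kcnn4 and Kcns3, beside 1960 of all genes. Without BAPN replicate 1 the number was 0, and the log2 fold change of Kcnk4 was -0.36. The median over the 36 genes was 0.28 beside 0.02 over all genes, and it too is not independent of the selection. This comparison and the previous one share their vehicle libraries.

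Fasudil against vehicle asks for the effect of fasudil alone. Limma called 0 of 36 genes and 0.0% of all genes, and 5 of 36, 4 higher and 1 lower, had an unadjusted p under 0.05, against 7.99% of all genes. Kcna2 went from 0.427 ± 0.164 (SD over n = 4) to 1.13 ± 0.260 (SD over n = 3), a log2 fold change of 0.58 ± 0.17 (SE, 95% interval 0.20 to 0.96, adjusted p = 0.528). Also among the 5 were Kcns3 at -0.53 ± 0.18 (adjusted p = 0.569), Kcnt1 at 1.65 ± 0.63 (0.601) and Kcnab2 at 1.06 ± 0.46 (0.621). The highest vehicle values of Kcna2, Kcnt1 and Kcnab2 were 0.660, 0.471 and 0.969 scaled FPKM. These genes met the level rule only through treated libraries, so their differences are not independent of the selection. Kcnmb1 and Kcnh2, at -1.17 ± 0.88 (SE, 95% interval -3.12 to 0.78) and -0.85 ± 0.74 (SE, 95% interval -2.49 to 0.79), had 2 fasudil libraries below all vehicle libraries and 1 above them. The smooth muscle sums of those 3 fasudil libraries were 739.9, 449 and 4520, the first 2 below and the third within the vehicle range. The median over the 36 genes was 0.05 beside -0.02 over all genes, and it too is not independent of the selection.

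BAPN with fasudil against fasudil asks what BAPN adds to fasudil, though fasudil followed 1 week of BAPN alone in the combination group. A difference in the timing of fasudil cannot be told apart from BAPN here. Limma called 0 of 36 genes, against 0.0218% of all genes, and 5 of 36, 2 higher and 3 lower, had an unadjusted p under 0.05, against 19.7% of all genes. Kcnk6 was at 1.10 ± 0.371 (SD over n = 3) with fasudil and 2.16 ± 0.285 (SD over n = 3) with the combination. It had a log2 fold change of 0.60 ± 0.18 (SE, 95% interval 0.21 to 0.99, adjusted p = 0.170), Kcne4 1.10 ± 0.47 (SE, 95% interval 0.06 to 2.14, adjusted p = 0.237), Kcnab3 -0.46 ± 0.19 (SE, adjusted p = 0.232) and Kcnn1 -0.53 ± 0.23 (adjusted p = 0.240). Kcnab3 was selected through fasudil libraries only, so its difference is not independent of the selection. With quality weights 12 of 36 passed, beside 4388 of all genes, and Kcnmb1, Kcnh2 and Kcnab1 were among them, higher with the combination. The median over the 36 genes was -0.14 beside 0.03 over all genes.

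In BAPN with fasudil against BAPN, which asks what fasudil adds to BAPN, no potassium channel gene reached even an unadjusted p under 0.05. Limma called 0 of 36, against 0.00727% of all genes, and 0 of 36 had an unadjusted p under 0.05, against 3.36% of all genes. With 2 BAPN libraries the intervals were wide. Kcnk4 had a log2 fold change of 0.32 ± 0.35 (SE, 95% interval -0.46 to 1.10), Kcna2 -0.31 ± 0.20 (SE, 95% interval -0.77 to 0.14) and Kcna6 -0.65 ± 0.38 (SE, 95% interval -1.49 to 0.19). Kcnj8 was at 0.19 ± 0.23 (SE, 95% interval -0.33 to 0.70). Without BAPN replicate 1 the value of Kcnk4 was -0.28, and replicate 3 held 2.01 scaled FPKM of it against 0.303 in replicate 1. The median over the 36 genes was 0.02 beside 0.04 over all genes.

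The interaction asks whether the effect of fasudil differed with BAPN present from that without it. Fasudil followed 1 week of BAPN alone in the combination group, so a difference in its timing cannot be told apart here. Limma called 0 of 36 genes, against 0.00727% of all genes, and 3 of 36, all below 0, had an unadjusted p under 0.05, against 5.27% of all genes. Among them were Kcna2 at -0.89 ± 0.27 (SE, 95% interval -1.48 to -0.30) and Kcna6 at -1.28 ± 0.49 (SE, 95% interval -2.38 to -0.19), each with an adjusted p of 0.837. Kcna2 had log2 fold changes against vehicle of 0.58 for fasudil and 0.54 for BAPN, and for the combination one of 0.23. It met the level rule only through treated libraries, so these values are not independent of the selection. Among values above 0 the smallest p belonged to Kcns3 at 0.46 ± 0.29 (SE, 95% interval -0.17 to 1.10). The median over the 36 genes was -0.10 beside 0.07 over all genes.

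Genes that work with potassium channels but fall outside the symbols were read from lists chosen with earlier results of these data known. Of 9 partner subunits, 3 were tested and limma called 0 in any comparison. In the combination against vehicle 0 of 3 had an unadjusted p under 0.05, with a median log2 fold change of 0.33. Abcc9, which encodes the sulphonylurea receptor that joins Kir6.1 in vascular KATP channels, was at 9.14, 12.8, 9.55 and 6.37 with vehicle, 7.97, 4.41 and 11.5 with fasudil, 14.6 and 10.5 with BAPN, and 11.4, 18.9 and 12.3 with the combination. Like Kcnj8 it was detected in every library, and its log2 fold change in the combination against vehicle was 0.54 ± 0.30 (SE) with a limma adjusted p of 0.280. Dpp6, a neuronal partner of Kv4 channels, was at 4.34 in fasudil replicate 3, 3.24 in BAPN replicate 1, 1.85 in fasudil replicate 2 and 1.07 in combination replicate 1, and at or under 0.394 in the other 8 libraries. Of 15 genes of the sodium pump and of potassium cotransport, 14 were tested and 0 passed in any comparison, with 5 at an unadjusted p under 0.05 and a median of 0.18 in the combination against vehicle. The pump regulator gene Fxyd5 had a log2 fold change of 1.64 ± 0.35 (SE) in the combination against vehicle, with an adjusted p just above the threshold at 0.0500168. Of 25 genes of calcium entry and calcium release, which open BK and SK channels, 22 were tested and 0 passed in any comparison, with 0 at an unadjusted p under 0.05 and a median of 0.20 in the same comparison. These medians stand beside 0.06 over all genes, and the counts at an unadjusted p under 0.05 beside 26.4% of all genes. Cacna1c, the L-type calcium channel of arterial muscle, had 0.62 ± 0.31 (SE, adjusted p = 0.233), and Piezo1, a stretch-activated channel gene, -0.21 ± 0.19 (SE, adjusted p = 0.507). In BAPN against vehicle Piezo1 had -0.79 ± 0.21 (SE, adjusted p = 0.1004).

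In the same comparison of the combination with vehicle, limma called 6 of 12 macrophage markers higher (Mrc1, C1qb, Tyrobp, C1qc, Fcer1g and Csf1r). Also called higher were 1 of 10 fibroblast (Dpep1), 1 of 9 white and general adipocyte (Lep) and 1 of 5 red blood cell markers (Hbb-bt). It called 2 of 10 brown adipocyte markers lower (Elovl3 and Otop1), and 0 of 11 smooth muscle and 0 of 12 sympathetic neuron markers. Of all genes, 1.68% were called. Kcnk6 had higher values in the 5 libraries with BAPN, and the sums of several marker lists differed between the same libraries. Macrophage sums were 209 to 675 with vehicle, 199 to 349 with fasudil, 1186 and 490.2 with BAPN and 500.4 to 1377 with the combination. All 12 macrophage markers were measured, and for 9 of them the 5 libraries with BAPN lay above all 7 without it, Csf1r at 9.57 or more against 8.53 or less and C1qa at 76.3 or more against 51.9 or less. Adgre1, Ctss and Lyz2 overlapped. The sums overlapped through vehicle replicate 3, where Lyz2 alone was at 534.7 and airway epithelium markers were high. Fibroblast sums did not overlap, at 488 to 1091 with vehicle, 395 to 1108 with fasudil, 1811 and 1334 with BAPN and 1421 to 2025 with the combination. Brown adipocyte sums were at most 3394 with BAPN present and at least 4069 without it. White and general adipocyte sums were at most 11601 and at least 12368 in the same order. The part of any of these markers in the level of Kcnk6 was not tested.

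At the edge of the level rule, the 3 genes just inside were Kcnt2, Kcnj10 and Kcnip3, whose second highest library was at 1.0, 1.13 and 1.2 FPKM as deposited. The 3 just outside were Kcnd1 and Kcnh6 at 0.97 and Kcnn2 at 0.89. Of the 56 genes left out, 7 reached 1 FPKM in 1 library and none was at 0 in all 12. Kcnq3, Kcnq5, Kcnj10 and Kcnj12 met the rule only through fasudil replicate 3 and BAPN replicate 1, libraries with the highest sympathetic neuron sums.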

How the data were processed

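RNA of mouse aorta was sequenced in 4 treatment groups. The deposited table holds FPKM to 2 decimals per the file headers, made by the authors from total RNA extracted with TRIzol. Bowtie2, RSEM and DESeq2 (no version given) and the builds GRCm39 and mm10 stand in the submitters' processing notes. The strand setting is not given in the sources used here, and the labels name a pair of instruments. Of 36082 rows, 28510 had values. The 36 genes and the gene lists were chosen with earlier results of these data known, and the genes on their measured FPKM. BAPN replicate 2 was left out of the fit and recovered from the authors' deposited group mean as an alternative. Library depth was estimated from the steps between low FPKM values.

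FPKM were scaled between libraries by a trimmed mean of log ratios (30% of ratios and 5% of levels trimmed) over genes at 1 FPKM in at least 2 of 12 libraries. Values of log2(scaled FPKM + 1) were fitted with limma 3.58.1 in R 4.3.3 with trend and robust prior variance, all groups in 1 fit with no covariate, and p-values were adjusted by Benjamini-Hochberg over 13748 genes at a threshold of 0.05. A fold change on this scale understates the change of low genes. FPKM are not counts, so no count test was run. Named genes were the 10 with the highest vehicle mean and, per comparison, the 2 with the smallest p in each direction. Alternatives were other pseudocounts, filters, scalings, weights and variance priors, a fit of the 2 groups compared, a replicate block, the recovered library and leaving out each library. The fit was tested on simulated data. Values of some genes are not reported here, though they stay in the counts. Exon overlaps used GENCODE M21 on GRCm38, and promoter sequences RefSeq on GRCm38.p6. Python 3.11.15 with numpy 2.4.6 and pandas 2.3.3 was used for descriptions.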

Additional observations from a re-analysis of the deposited data

Results flagged for a closer look

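3 of the 36 genes had a vehicle library set apart from the other 3 by Dixon's criterion, which flags about 1 in 20 groups by chance. Groups of fewer than 4 libraries were not examined. Kcnn4 was at 3.84 scaled FPKM in vehicle replicate 2 and at 1.91 to 2.18 in the others. Kcnj15 was at 0.543 in vehicle replicate 4 against 1.93 to 2.21. Kcne3, the gene of a subunit known from epithelia, was at 4.80 in vehicle replicate 3 against 0.207 to 0.524, and airway epithelium markers summed to 13686 in that library. Their part in the level of Kcne3 was not tested.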

How the results depend on the processing

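The count of potassium channel genes past the threshold was 0 in all 6 comparisons and was 0 under the alternatives run except those given here. For BAPN with fasudil against vehicle it was 1 with no scaling (Kcnk6), 10 with library quality weights, 3 in the fit of the 2 groups compared, where 26 of the 36 genes met the filter, and 0 to 3 when each library was left out. For BAPN with fasudil against fasudil it was 12 with library quality weights. For BAPN against vehicle it was 0 to 7 when each library was left out. With no scaling the median log2 fold change of all genes was 0.35 in BAPN with fasudil against vehicle, 0.43 in BAPN against vehicle, 0.16 in fasudil against vehicle, 0.15 in BAPN with fasudil against fasudil and -0.22 in the interaction, so changes there are to be read relative to those medians, and 1680 genes were called in BAPN with fasudil against vehicle in place of 231. When each library was left out, that count over all genes ran from 1 without vehicle replicate 1 to 1695 without BAPN replicate 1. Of 531 values of 24 named results under alternatives, 512 kept their direction and their side of the threshold, 18 passed it with the same direction, 0 lost it and 1 reversed. The reversed value was Kcnk4 in BAPN with fasudil against BAPN without BAPN replicate 1, at -0.28 against 0.32 with all libraries and 0.92 without BAPN replicate 3. The cause was not tested. Replicate numbers are not said to pair animals, and the deviations of 15 same-numbered library pairs correlated at -0.487 to 0.213, with 3 over 0.1. With the replicate block, 0 of the 36 genes passed in each of the 6 comparisons, and 0 of all genes did. With the recovered BAPN replicate 2, 0 of 36 passed in each, beside 961 of all genes in BAPN with fasudil against vehicle and 1086 in BAPN against vehicle. At the estimated depth, genes near 1 FPKM rest on about 26.0 to 246 reads, and lower ones on fewer.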
